A study of Mus musculus with 2 samples.

Results

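C1q is the recognition molecule of the classical complement pathway, and its A, B and C chains are encoded by C1qa, C1qb and C1qc. The 3 genes were taken by symbol from the deposited gene lists, which were the same in both libraries. They were 3 of 31053 listed genes. Each was measured in single cells from bone marrow derived macrophage cultures of wild-type 129Sv mice, grown with 50 ng/ml M-CSF, the growth factor that directs marrow cells towards macrophages. On day 7 the THP culture received 1 µg/ml of truncated, non-polymerizing Tamm-Horsfall protein, a glycoprotein made by kidney tubule cells and also called uromodulin. The vehicle culture received 5% dextrose. Both were harvested after 18 h. There was 1 library per group, so no difference has a replicate check or a p-value, and treatment cannot be told apart from culture dish or library preparation.

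The A, B and C chains fold together through collagen-like stalks and carry globular heads, which bind antibody in immune complexes, pentraxins and the surface of dying cells. Bound C1q activates the serine proteases C1r and C1s, which cleave C4 and C2 and so start the cascade that deposits C3. Most complement proteins are made by the liver, whereas C1q is made mainly by macrophages and dendritic cells, and it also coats dying cells for uptake.

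The 3 genes lie side by side on the minus strand of mouse chromosome 4, in a span of 18675 bases of GRCm38 that holds no other annotated gene between them. C1qb (ENSMUSG00000036905) occupies chr4:136880129-136886187, C1qc (ENSMUSG00000036896) chr4:136889804-136893065 and C1qa (ENSMUSG00000036887) chr4:136895917-136898803. Gaps of 3616 bases separate C1qb from C1qc and 2851 bases separate C1qc from C1qa. Each gene has 3 annotated exons, overlaps no other annotated gene, and has a longest transcript of 1088 bases (C1qb), 1203 bases (C1qc) or 1040 bases (C1qa).

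RefSeq promoter windows of GRCm38.p6, from 250 bases before to 50 bases after the start site, matched C1qb and C1qc. They are shown because the genes were detected together in single cells, and both read 5′ to 3′ on the minus strand. Capitals mark matches to 3 of the 6 motifs searched on both strands, which are named after the sequences. The C1qb window is chr4:136886151-136886450 and the C1qc window is chr4:136892865-136893164. The annotated C1qc gene given above reaches chr4:136893065, so part of the bases before the RefSeq start of C1qc lie inside that gene.
C1qb: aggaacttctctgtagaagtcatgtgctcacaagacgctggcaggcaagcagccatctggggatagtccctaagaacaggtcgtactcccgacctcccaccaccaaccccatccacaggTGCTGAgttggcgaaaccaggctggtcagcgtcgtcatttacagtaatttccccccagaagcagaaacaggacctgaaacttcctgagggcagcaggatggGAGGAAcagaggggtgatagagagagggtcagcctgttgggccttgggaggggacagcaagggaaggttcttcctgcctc
C1qc: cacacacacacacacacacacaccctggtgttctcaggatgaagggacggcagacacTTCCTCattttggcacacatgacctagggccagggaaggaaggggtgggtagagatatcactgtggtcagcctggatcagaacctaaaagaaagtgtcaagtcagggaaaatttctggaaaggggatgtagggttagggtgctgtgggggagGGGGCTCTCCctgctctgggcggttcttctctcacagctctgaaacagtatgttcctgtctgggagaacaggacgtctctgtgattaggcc

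The PU.1 core GAGGAA, the binding core of a lineage factor of myeloid cells, occurred once in each window: at -30 from the start in C1qb, and at -193 in C1qc as its reverse complement. It occurred in 28.3% of all 32851 windows of this length. The Maf half-site TGCTGA occurred once, at -131 in C1qb, against 19.5% of all windows. A kappa B motif occurred once, at -41 in C1qc, against 4.51% of windows. This match lies inside the annotated C1qc gene, because the 2 annotations place the start differently. The interferon response core GAAANNGAA (8.56% of windows) and the AP-1 motif TGANTCA (7.81%) had no match in either window. The E-box CANNTG, present in 72.3% of windows and not capitalised, matched 3 times in C1qb and 1 time in C1qc, and one of the C1qb matches overlapped the Maf half-site. These matches describe letters and are not evidence of binding.

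The cell filter retained 12123 cells treated with THP and 10978 treated with vehicle, which held 224825484 and 207662132 unique molecular identifiers (UMIs, the tags that count captured RNA molecules) and medians of 16113 and 17223 UMIs per cell. The kept libraries had 38 cell barcodes in common. The cultures were labelled macrophages, and 69.7% of THP cells and 62.0% of vehicle cells held a UMI of Adgre1, which encodes the macrophage surface protein F4/80. Clustering without the C1q genes gave 16 clusters, of which 4 were macrophage-like and 3 neutrophil-like. The others included clusters with monocyte, myeloid progenitor, mast cell or basophil, stromal and B cell markers. All 9 macrophage markers reached 50 CPM (counts per 1000000 UMIs) in the cluster led by Vsig4, Cd209f, Marco, Cd5l and Cd163, and 7 of 9 did so in the other 3 macrophage-like clusters. The same 7 of 9 was found in the Mmp12 and Atp6v0d2 cluster and in cluster 12, led by Mpo. These were named for osteoclast and progenitor markers among their 10 leading genes. Macrophage-like clusters 3 and 5 had 0 macrophage markers among theirs and were named by the median fold of the marker list. By that same median fold the H2-Eb1 and H2-Aa cluster was nearest the monocyte list. The Nrgn and Xcl1 cluster had 2 markers of T, NK or innate lymphoid cells among its 10 leading genes. Both of these clusters are left unnamed here.

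Over all kept cells, C1qa stood at 252 CPM with THP and 205 CPM with vehicle. C1qb stood at 301 CPM and 203 CPM. C1qc stood at 197 CPM and 155 CPM. Each gene was therefore higher in the THP library, and the exact Poisson 95% intervals, which cover counting error only, did not overlap: 249.98 to 254 CPM against 203 to 207 CPM for C1qa, 299 to 304 CPM against 201 to 205 CPM for C1qb, and 195 to 199 CPM against 153 to 157 CPM for C1qc. The log2 ratios of CPM + 1, THP over vehicle, were 0.30, 0.57 and 0.34. C1qb therefore had the largest ratio of the 3.

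None of the 3 genes passed the rule for a difference in size, which asked for 10 CPM in at least 1 library and a 2-fold ratio. Of 8012 genes at 10 CPM or more, 0.911% passed it as higher in the THP library and 2.97% as lower. The median log2 ratio of those genes was -0.18, with a central 95% from -1.04 to 0.56. Relative to that median the ratios of C1qa, C1qb and C1qc were 0.48, 0.75 and 0.52. A larger ratio was seen for 589 genes in the case of C1qa, 192 for C1qb and 447 for C1qc. Scaling by TMM factors moved the median of all genes up by 0.28 and gave ratios of 0.58, 0.85 and 0.63.

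The size and the sign of the difference varied with the cells compared. In the Vsig4 cluster, C1qa was measured at 1520 CPM in 759 THP cells and at 1596 CPM in 731 vehicle cells. C1qb was at 1039 CPM and 955 CPM, and C1qc at 884 CPM and 945 CPM. The log2 ratios were -0.07, 0.12 and -0.10, all within 0.2 of no difference, although the counting intervals of each gene were apart. Under the TMM factors of the whole libraries the same ratios became 0.21, 0.41 and 0.19, so the signs for C1qa and C1qc depended on the scaling.

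The other 3 macrophage-like clusters were led by Ccl7 and Cxcl1 (cluster 3), Dab2 and Mrc1 (cluster 4), and Cxcl10 and Rsad2 (cluster 5). Cluster 3 held 5250 THP cells and 188 vehicle cells, and cluster 4 held 76 and 2097, so most macrophage-like cells of the 2 libraries fell into different clusters. Pooled over these 3 clusters, C1qa was at 184 CPM with THP and 150 CPM with vehicle, C1qb at 324 and 287 CPM, and C1qc at 183 and 168 CPM. The log2 ratios were 0.29, 0.17 and 0.12. The share of these cells with any C1q UMI was 75.1% and 75.9%, with overlapping Clopper-Pearson 95% intervals of 73.9 to 76.2% and 74.2 to 77.7%.

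When all 4 macrophage-like clusters were pooled, the ratios were below 0: -0.45 for C1qa, -0.09 for C1qb and -0.35 for C1qc, and the TMM factors turned that of C1qb to 0.19. The Vsig4 cluster made up 759 of the 6250 pooled THP cells and 731 of the 3092 pooled vehicle cells. The pooled ratios therefore combine the level per cell with the mix of clusters. The Mmp12 and Atp6v0d2 cluster, which also had 7 of 9 macrophage markers at 50 CPM, was not in this pool. Its own ratios were -0.29, 0.17 and 0.02, and a pool that included it was not run. With the Vsig4 cluster left out of all kept cells, the ratios were 0.89, 0.82 and 0.74. The sign of the C1q difference thus depended on which cells stood in the sum.

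**Figure D1:**
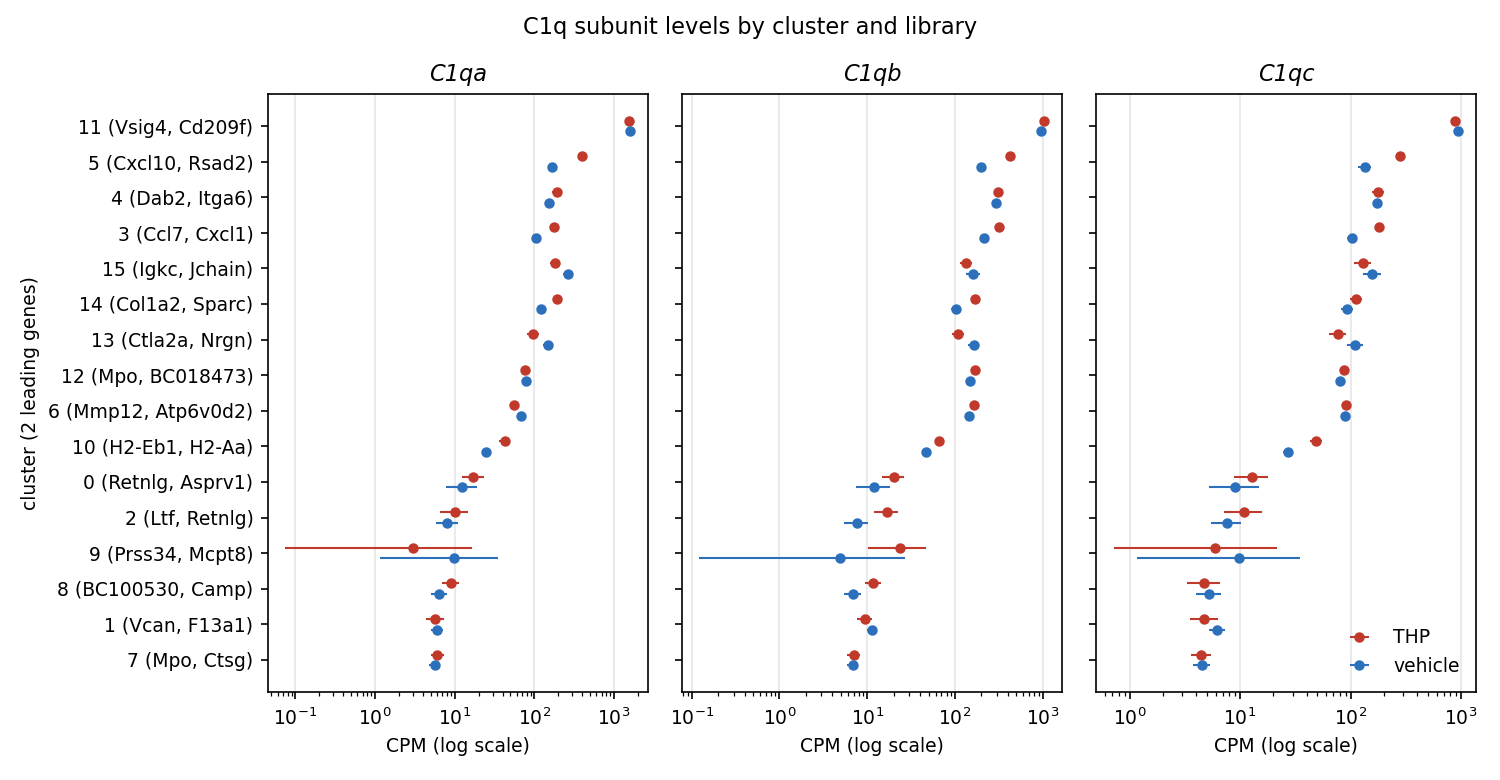
Levels of C1qa, C1qb and C1qc in CPM (log axis) in each of 16 clusters of kept cells, labelled by 2 leading genes, for the THP library (red) and the vehicle library (blue). Points are summed levels and bars exact Poisson 95% intervals. The Vsig4 cluster stands highest for each gene in both libraries, at 1520 and 1596 CPM for C1qa.

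The source of the C1q molecules was uneven. The Vsig4 cluster made up 6.26% of THP cells and 6.66% of vehicle cells, and it held 40.2% and 55.1% of all C1q UMIs. For C1qa its share was 52.8% and 69.0%, for C1qb 30.2% and 41.7%, and for C1qc 39.3% and 54.2%. C1qa was thus the subunit whose molecules came most from this cluster.

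In CPM of the whole library, summed C1q was 750.2 with THP and 563 with vehicle. The Vsig4 cluster gave 301 and 310 of these, the other macrophage-like clusters 403 and 174, and the remaining 12 clusters 46.1 and 78.5. The library difference of 187 CPM was therefore the sum of -8.83, 228 and -32.4. These contributions combine the level per cell with the number of cells in a group of clusters, and the other macrophage-like clusters held 45.3% of THP cells and 21.5% of vehicle cells. Since genes that differ between the libraries helped define clusters 3 and 4, the cell numbers are given as the basis of the sum and not as a difference between the cultures.

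**Figure D2:**
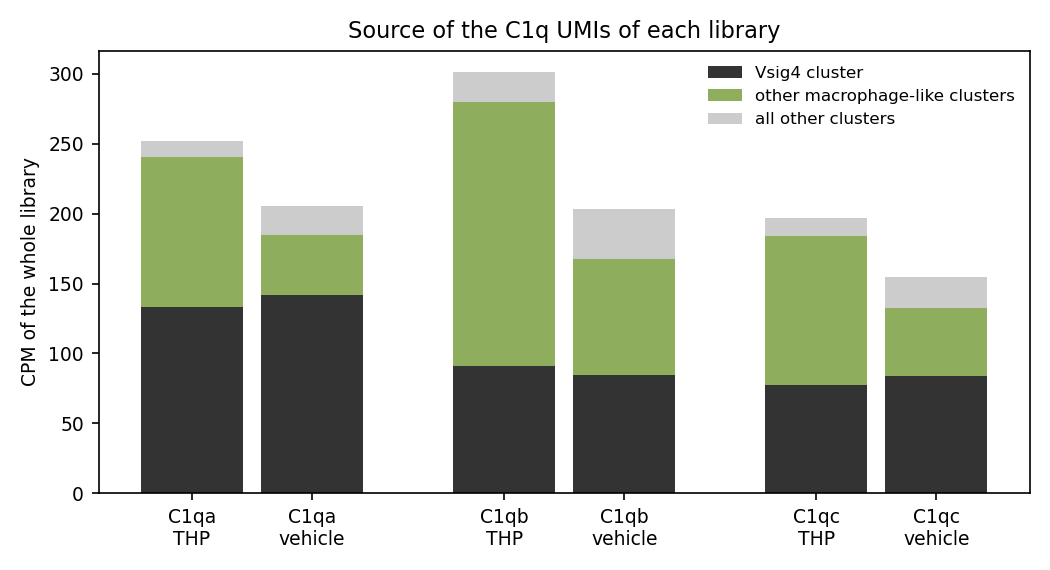
Levels of C1qa, C1qb and C1qc in CPM of each whole library, stacked by source: the Vsig4 cluster (dark), the other 3 macrophage-like clusters (green) and the remaining 12 clusters (grey). The dark part differs little between libraries, and the green part is taller in the THP library for each gene (107 against 43.2 for C1qa).

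Across the 16 clusters, the order of summed C1q levels began with the Vsig4 cluster in both libraries, at 3443 CPM with THP and 3496 CPM with vehicle. In the THP library the Cxcl10 and Rsad2 cluster (165 cells) followed at 1098 CPM. Clusters 3 and 4 came next, at 675 CPM each. These neighbours did not differ beyond counting error, whereas the steps above them did. In the vehicle library cluster 4 came second at 620 CPM, with an interval of 613 to 626 CPM. The B cell-like cluster was next at 585 CPM, with an interval of 532 to 643 CPM that overlapped that of cluster 4. This interval covers counting error only, and 3 of the 87 vehicle cells held at least 100 C1q UMIs each, of 441 in all. The vehicle cells of the Cxcl10 cluster (76 cells) were at 497 CPM, and cluster 3 (188 cells) was at 421 CPM.

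Levels between about 280 and 480 CPM in the THP library were found in the stromal-like cluster (476 CPM), the B cell-like cluster (443 CPM), progenitor-like cluster 12 (333 CPM), the Mmp12 and Atp6v0d2 cluster (308 CPM) and the unnamed Nrgn and Xcl1 cluster (281 CPM). In the vehicle library these clusters had 315, 585, 305, 301 and 421 CPM. In the B cell-like cluster only 29 of 150 THP cells and 11 of 87 vehicle cells held a C1q UMI, so its level came from few cells. Of its cells, 3.33% with THP and 3.45% with vehicle held 80% of these C1q UMIs. Cluster 12, led by Mpo, had medians of 28204 and 29743.5 UMIs per cell, 7 of 9 macrophage markers at 50 CPM and C1q UMIs in 70.4% and 60.7% of its cells. Whether cells captured together contributed to the levels of these clusters was not tested.

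The unnamed cluster led by the MHC class II genes H2-Eb1 and H2-Aa, which encode antigen-presenting molecules, had 157 CPM in 412 THP cells and 98.6 CPM in 781 vehicle cells. C1q UMIs were present in 18.4% and 30.7% of its cells, at a median depth of 9211 UMIs in THP cells against 16181 in vehicle cells. In cells thinned to 5000 UMIs the shares were 13.1% and 14.5%, with overlapping intervals. Few cells carried the level: 2.43% of the THP cells and 5.76% of the vehicle cells held 80% of these C1q UMIs, and the mean over cells was 0.81 and 0.78 C1q UMIs per 10000. Low levels were found in monocyte-like cluster 1 (19.8 and 23.6 CPM) and progenitor-like cluster 7 (17.6 and 16.9 CPM), the latter the lowest in each library. The 3 neutrophil-like clusters, pooled, stood at 32.7 CPM with THP and 21.2 CPM with vehicle. Neutrophils are not known as a main source of C1q, and these values serve here as an assumed background of RNA free in the suspension. Free RNA itself was not measured. The neutrophil-like value is not the floor of these data, since cluster 7 stood below it in both libraries.

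Of the 9 clusters with at least 200 cells in each library, summed C1q was higher in the THP cells of 7. These 7 included the 3 neutrophil-like clusters, which were used above as a background. The counting intervals were apart in 4 of the 7: neutrophil-like clusters 2 and 8, the H2-Eb1 cluster and progenitor-like cluster 12. They were also apart in 1 of the 2 clusters with the lower THP value. How many of all genes were higher in as many clusters was not counted. C1qb was higher in 8 of 9 clusters, with intervals apart in 6. C1qa and C1qc were each higher in 5 of 9. Under the TMM factors summed C1q was higher in 9 of 9 and each gene in 8 of 9. Neither clusters 3 and 4 nor cluster 5 entered this count, because at least 1 library had under 200 cells in each.

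C1q-positive cells, those with at least 1 UMI of any of the 3 genes, made up 67.3% of 8448 Adgre1-positive THP cells and 58.7% of 6809 such vehicle cells, with intervals of 66.3 to 68.3% and 57.5 to 59.8%. Among Adgre1-negative cells the shares were 18.3% and 16.2%. Among neutrophil-like cells they were 15.1% and 12.1%, at medians of 4035 and 4483 UMIs per cell against 19680.5 and 21912 for Adgre1-positive cells. The Adgre1-positive share thus lay far above that background in both libraries, although depth differed between the classes.

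To remove the difference in depth, each cell was thinned to 5000 UMIs, which left out 1958 shallower THP cells and 1966 vehicle cells. C1q-positive cells then made up 58.9% of 6173 Adgre1-positive THP cells and 48.1% of 4428 vehicle cells, with intervals of 57.6 to 60.1% and 46.7 to 49.6%. The neutrophil-like background was then 10.4% and 8.60%. Thinning left out 1382 of 2416 THP and 1609 of 2981 vehicle neutrophil-like cells, so this background changed in its cells as well as in depth. The share of Adgre1-positive cells was therefore higher in the THP library at matched depth as well, with counting intervals apart.

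The level behind the share was 864 CPM of summed C1q in Adgre1-positive THP cells and 699 CPM in Adgre1-positive vehicle cells. By gene, C1qa was at 291 and 255 CPM, C1qb at 347 and 252 CPM, and C1qc at 227 and 192 CPM. The log2 ratios were 0.19, 0.46 and 0.24, and 0.31 for the sum. None of the 3 genes passed the size rule among Adgre1-positive cells, where 0.919% of 7940 genes passed it as higher and 2.8% as lower.

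What counted as Adgre1-positive differed between the libraries. The Vsig4 cluster supplied 8.84% of these cells with THP and 10.6% with vehicle, and the other macrophage-like clusters supplied 61.9% and 33.5%. Within those other macrophage-like clusters, 76.9% of Adgre1-positive THP cells and 76.8% of vehicle cells were C1q-positive, at 699.5 and 609 CPM. In the Vsig4 cluster all Adgre1-positive cells of both libraries were C1q-positive, so no difference in share could show there. In all clusters outside the macrophage-like and neutrophil-like ones, pooled, 42.8% and 43.9% were C1q-positive. In the neutrophil-like clusters the shares were 15.8% and 11.9%. These shares are not at matched depth. The pooled value of the other macrophage-like clusters joins clusters that differed in direction: over all their cells, the THP and vehicle shares were 75.2% and 59.6% in cluster 3, 61.8% and 78.1% in cluster 4, and 78.2% and 57.9% in cluster 5. In each of these clusters 1 or both libraries had under 200 cells. Adgre1 itself was at 353 CPM with THP and 235 CPM with vehicle.

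Detection of C1q rose with the Adgre1 level in both libraries. In cells thinned to 5000 UMIs, 21.6% of THP cells with 0 Adgre1 UMIs were C1q-positive, 44.1% with 1, 61.0% with 2 to 3, 74.3% with 4 to 7 and 90.2% with 8 or more. The vehicle shares were 16.5%, 34.5%, 52.2%, 75.3% and 90.2%. The THP library was higher in the lower 3 classes, while in the upper 2 the intervals overlapped. Only 193 THP cells and 61 vehicle cells had 8 or more Adgre1 UMIs, and the Vsig4 cluster supplied 48.7% and 73.8% of them.

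**Figure D3:**
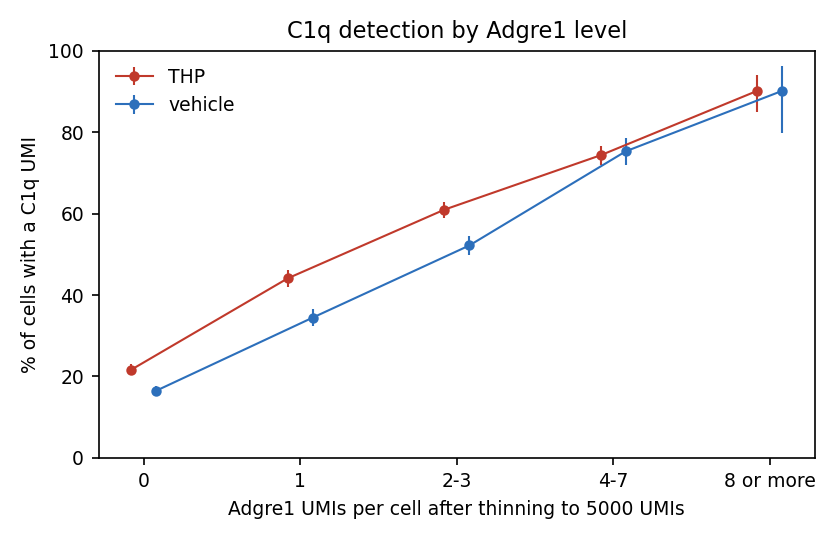
Share of cells with at least 1 C1q UMI (vertical axis, percent) by the number of Adgre1 UMIs per cell after thinning to 5000 UMIs, for the THP library (red) and the vehicle library (blue), with Clopper-Pearson 95% intervals. The lines lie apart up to 2 to 3 Adgre1 UMIs (61.0% against 52.2%) and meet at 8 or more (90.2% in both).

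The distribution over single cells was strongly skewed. Among Adgre1-positive cells the median was 1.27 C1q UMIs per 10000 UMIs of the cell with THP and 0.46 with vehicle. The 75th percentile was 9.85 and 6.21, and the 90th was 26.1 and 24.8. At the 95th percentile the order turned, with 40.8 and 41.6. It turned back at the 99th, with 76.8 and 70.2, and the highest cells reached 130.5 and 114.7. The 25th percentile was 0 in both libraries.

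In the THP library, 56.2% of the C1q UMIs of Adgre1-positive cells were held by the top 10% of cells, and in the vehicle library 64.1%. UMIs of none of the 3 genes were found in 32.7% of THP and 41.3% of vehicle cells. All 3 genes were found in 36.7% and 28.9%. Cells with only some of the genes were mostly cells with few C1q UMIs: of cells with at least 10 C1q UMIs, 88.9% held all 3 genes in both libraries.

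**Figure D4:**
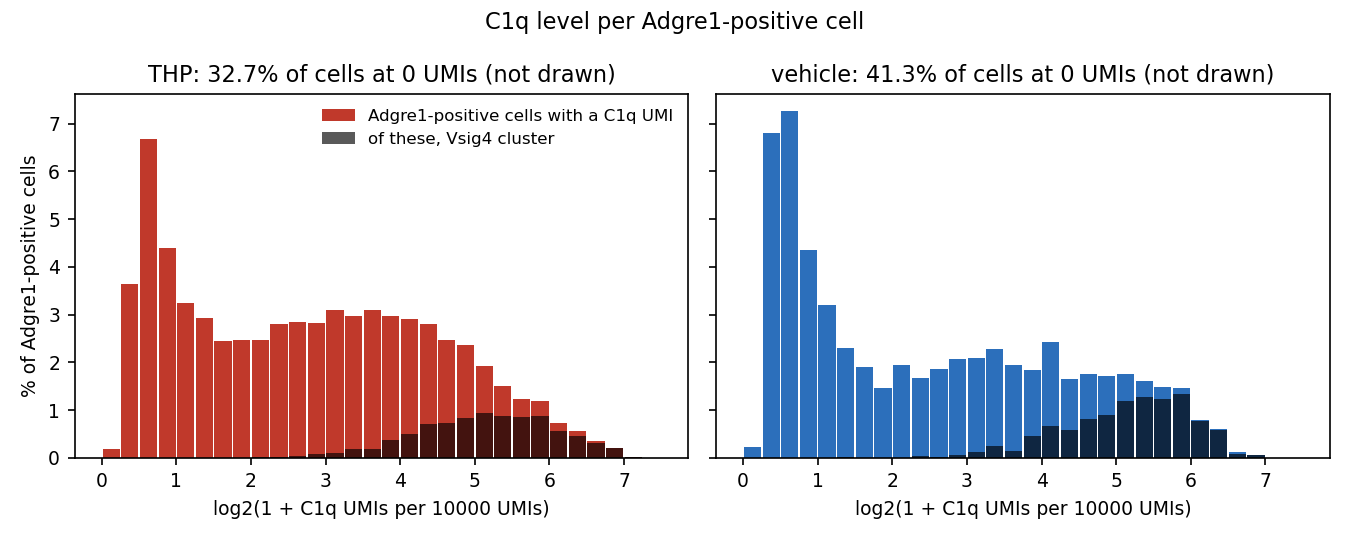
Distribution of C1q level per Adgre1-positive cell with at least 1 C1q UMI, as the percent of all Adgre1-positive cells (vertical axis) in bins of log2(1 + C1q UMIs per 10000 UMIs), in the THP library (red) and the vehicle library (blue). The darker bars are cells of the Vsig4 cluster. Cells with 0 C1q UMIs, 32.7% and 41.3%, are not drawn, and the Vsig4 cluster fills the upper end in both libraries.

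The 3 genes rose and fell together from cell to cell. Over 8448 Adgre1-positive THP cells the Pearson correlation of log values was 0.78 for C1qa and C1qb, 0.84 for C1qa and C1qc, and 0.85 for C1qb and C1qc. Over 6809 vehicle cells it was 0.81, 0.88 and 0.89. Within the Vsig4 cluster, where nearly all cells held each gene, the correlations were between 0.70 and 0.79. Cells of a library share its depth and free RNA, so these values describe the cells and have no p-value.

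The proportions of the 3 subunits were not the same in all macrophage-like cells. In the Vsig4 cluster, C1qa made up 44.1% of THP C1q UMIs and 45.7% of vehicle C1q UMIs, C1qb 30.2% and 27.3%, and C1qc 25.7% and 27.0%. In THP cells of cluster 3 the shares were 26.0% C1qa, 47.4% C1qb and 26.5% C1qc. In vehicle cells of cluster 4 they were 24.6%, 47.5% and 28.0%. The share of C1qa in the Vsig4 cluster was thus well above that in the other main macrophage-like cluster of each library, the share of C1qb well below it, and that of C1qc nearly equal.

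Divided by transcript length, the shares of C1qa, C1qb and C1qc in the THP cells of the Vsig4 cluster were 46.4%, 30.3% and 23.3%, and in those of cluster 3 they were 27.6%, 48.0% and 24.3%. The leading subunit per length was therefore C1qa in the Vsig4 cluster and C1qb in cluster 3. The Mmp12 and Atp6v0d2 cluster had the lowest C1qa shares of the clusters drawn, 17.8% with THP and 22.4% with vehicle. In the Cxcl10 cluster C1qa made up 35.9% and 33.3%. For the neutrophil-like clusters, counts were small: 415 and 398 C1q UMIs in all.

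The C1qa share was also read against the C1q level of a cell. In Adgre1-positive cells outside the Vsig4 cluster, it was 22.3% of C1q UMIs in the 1862 THP cells with C1q UMIs at up to 2 per 10000, 18.7% in those with above 2 and up to 5, and 39.8% in the 114 THP cells above 40. In the vehicle library it was 23.9% in 1680 cells, 16.3% and, in 42 cells above 40, 36.1%. The share thus was lowest in the second class, not the first, in both libraries. C1qc was at 43.4%, 34.0% and 22.0% in these classes of THP cells and at 40.3%, 34.5% and 22.7% in those of vehicle cells. Within the Vsig4 cluster the C1qa share ranged from 41.5% to 45.5% over levels in the THP library and from 44.1% to 46.9% in the vehicle library. Cells were binned by the sum of the same 3 genes, so the shares of a bin are not independent of its limits.

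**Figure D5:**
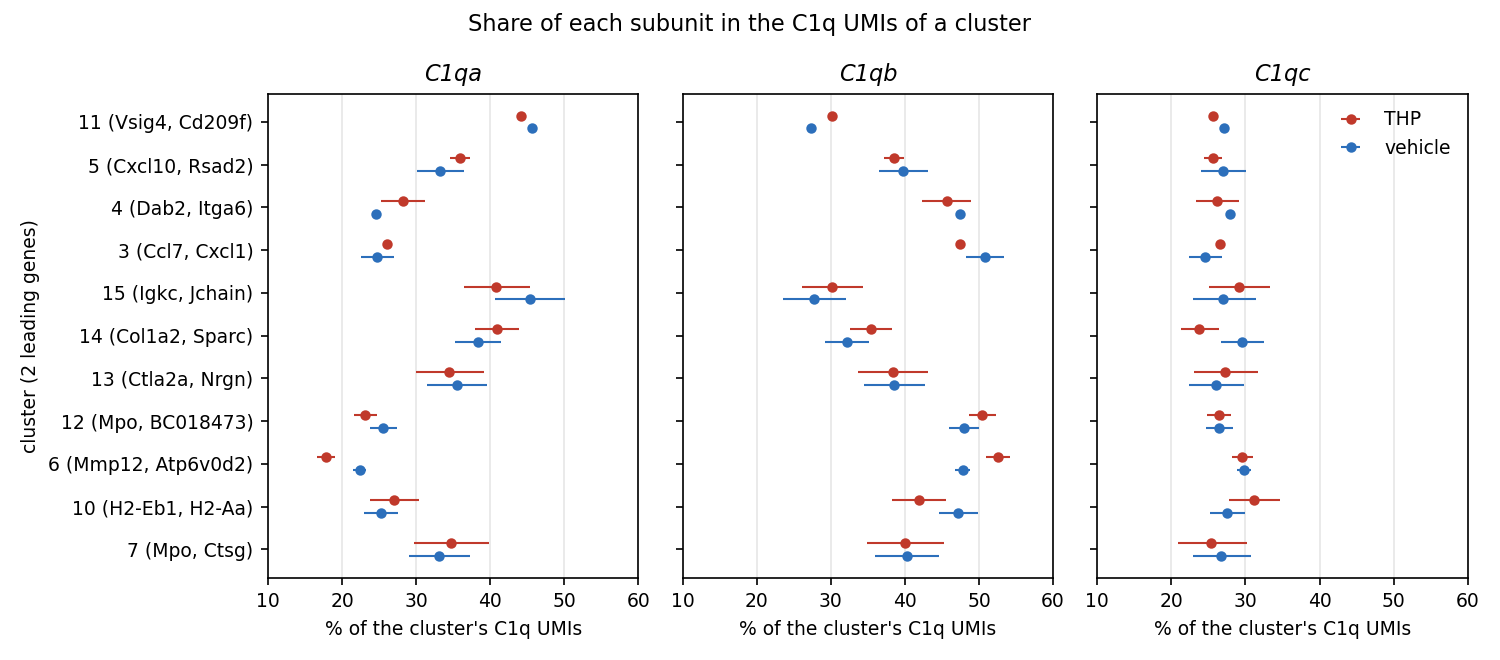
Share of C1qa, C1qb and C1qc in the C1q UMIs of a cluster (horizontal axis, percent, from 10 to 60) in the THP library (red) and the vehicle library (blue), with Clopper-Pearson 95% intervals, for the 11 of 16 clusters with at least 300 C1q UMIs in each library. C1qa stands at 44.1% and 45.7% in the Vsig4 cluster and at 17.8% and 22.4% in the Mmp12 cluster.

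None of the 6 genes of the C1 proteases and their inhibitor (C1ra, C1rb, C1rl, C1s1, C1s2 and Serping1) reached 10 CPM. C1ra, which encodes the protease that C1q first activates, was at 1.76 and 1.88 CPM. Serping1, the gene of the C1 inhibitor, was at 2.37 CPM with THP and 0.92 CPM with vehicle. Its UMIs came almost only from the stromal-like cluster (91 and 76 cells), at 227 and 62.0 CPM, with at most 0.22 CPM in any other cluster.

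Of 10 genes that act after C1 and were listed in the files, C3 alone reached 10 CPM. C3 encodes the central complement protein and was at 101 CPM with THP and 151 CPM with vehicle, with a log2 ratio of -0.57. Of 14 genes for C1q receptors and binding proteins, 10 reached 10 CPM and 0 passed the size rule. Their median log2 ratio was -0.19, against -0.18 for all genes tested. With library totals 9 of the 10 ratios were below 0, and under the TMM factors 4 were.

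Among these genes, Calr, whose product calreticulin binds the collagen-like stalks, was at 806 CPM with THP and 875 CPM with vehicle. Its partner receptor Lrp1 was at 182 and 189 CPM. Cd93, first described as a C1q receptor for phagocytosis, was at 105 and 130 CPM. The lowest ratio in the list was that of Itgb1, the integrin beta 1 chain, at 226 and 376 CPM, a log2 ratio of -0.73. Cd33, an inhibitory receptor of myeloid cells, had a ratio of -0.67. Fcer1g, the signalling chain shared by Fc receptors that bind antibody, was at 2173 and 1643 CPM, a ratio of 0.40.

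Of 7 transcription factor genes of the myeloid lineage, 1 passed the size rule as higher and 0 as lower, beside 0.911% and 2.97% of all genes tested. Under the TMM factors, which moved the median of all genes up by 0.28, 2 passed as higher. The share of all genes that passed under these factors was not computed. Nr1h3, which encodes the oxysterol receptor LXR alpha, was at 26.4 CPM with THP and 12.4 CPM with vehicle, a log2 ratio of 1.03. Among Adgre1-positive cells its ratio was 0.94 and did not pass. Maf was at 259 and 309 CPM, with a ratio of -0.26 that became 0.03 under the TMM factors. Cebpb and Spi1, which encodes PU.1, had ratios of 0.85 and 0.46, and the TMM factors brought Cebpb to 1.14. With library totals 3 of the 7 ratios were above 0 and 4 below. Under the TMM factors 6 were above 0 and 1 below.

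In the Vsig4 cluster, where C1q was nearly level, Maf was at 469 CPM in THP cells and 807 CPM in vehicle cells. The ratio of C1q to Maf within the cluster was thus not the same in the 2 libraries.

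The genes most like summed C1q from cell to cell were named by the smaller of 2 Pearson correlations, 1 per library, over Adgre1-positive cells and among 7325 genes at 10 CPM or more in both libraries. Lgmn, the lysosomal protease legumain, came first with 0.60, followed by Aif1, which encodes the macrophage protein Iba1, with 0.59. Marcks, Sdc3 and the mannose receptor gene Mrc1 had 0.52, and Dst, Ms4a7 and Serpinb6a had 0.50. Cd55, which encodes a complement regulator of the cell surface, and Adgre1 had 0.48. These cells share depth: in cells thinned to 5000 UMIs the value of Lgmn was 0.43, and 6 of the 10 genes stayed among the first 10.

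Without the Vsig4 cluster, 4 of the 10 genes stayed (Lgmn, Aif1, Mrc1 and Serpinb6a), Pf4 came first with 0.48, and Cd55 had 0.11. Of the transcription factors, Maf ranked 11th by the same measure, with correlations of 0.48 with THP and 0.63 with vehicle. Nr1h3 ranked 21st. Spi1 ranked 7058th and Cebpb 7142nd, both with correlations below 0 in each library.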

How the data were processed

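The authors deposited untransformed UMI counts, by gene and barcode, for 1 THP and 1 vehicle library, with software version 3.1.0 in the matrix header, per the file headers. The authors used bcl2fastq, Cell Ranger, STAR and the build mm10, per the submitters' processing notes. Coordinates are from the GENCODE annotation of GRCm38 and are 1-based.

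Barcodes with at least 500 genes, 1000 UMIs and at most 10% mitochondrial UMIs were kept. Doublets were not removed. One joint clustering of the libraries, with no batch integration, was run in scanpy 1.11.5 (2000 variable genes without the C1q genes, 30 principal components, 15 neighbours, Leiden resolution 0.5), and clusters were named from marker lists. UMIs were summed and divided by the total of the same cells (CPM). Intervals cover counting error only. Thinning drew UMIs without replacement and was tested on simulated data. TMM and RLE factors came from edgeR 4.0.16.

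Genes named in the text were the 3 C1q genes, members of complement and C1q partner lists at 10 CPM or more in at least 1 library, 7 transcription factors and the 10 genes most like C1q. C1 protease genes under 10 CPM, genes named as cluster leaders and Pf4 were added after their values were seen. The values of 1 of these transcription factors are not reported here. Members, lists and rules were chosen with earlier results of these data known. Alternatives covered the cell filter, deep cells, scaling, weighting, the pseudocount, cluster mix, transcript length, detection thresholds, depth and cluster resolution. Leaving out the Vsig4 cluster and using only macrophage-like clusters were added after the data were seen.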

Additional observations from a re-analysis of the deposited data

Results flagged for a closer look

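For C1qa and for C1qc, the difference between libraries had opposite directions in different clusters. The counting intervals were apart in each cluster named here for that gene. The log2 ratio of CPM + 1, THP over vehicle, was 0.74 for C1qa in the cluster led by H2-Eb1 and H2-Aa, -0.29 in the Mmp12 and Atp6v0d2 cluster and -0.071 in the Vsig4 cluster. For C1qc it was 0.82 in the H2-Eb1 cluster and -0.10 in the Vsig4 cluster. Each ratio rests on 1 library per group, so the difference between clusters was not tested. Under the TMM factors of the whole libraries the ratios were 1.02, -0.01 and 0.21 for C1qa, and 1.10 and 0.19 for C1qc, so the opposite signs of the Vsig4 cluster did not hold under that scaling. In the H2-Eb1 cluster few cells carried the C1q level, which the counting intervals do not cover: 14 of 412 THP cells and 38 of 781 vehicle cells held at least 10 C1q UMIs, and 2.43% of the THP cells held 80% of the C1q UMIs.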

How the results depend on the processing

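For C1qa, C1qb and C1qc over all kept cells, the log2 ratio stayed above 0 under every alternative run except macrophage-like clusters only, which gave -0.45, -0.090 and -0.35. That set left out the Mmp12 and Atp6v0d2 cluster. The Vsig4 cluster made up 759 of the 6250 THP cells and 731 of the 3092 vehicle cells of that set. TMM factors gave 0.58, 0.85 and 0.63, and RLE factors 0.57, 0.85 and 0.62. Averaging the cluster mix over the libraries gave 0.27, 0.40 and 0.29. That average took the level of cluster 3 with vehicle from 188 cells and that of cluster 4 with THP from 76. It therefore leans on few cells in these clusters. Removing the trend with transcript length gave 0.17, 0.45 and 0.24. Leaving out the Vsig4 cluster gave 0.89, 0.82 and 0.74. Without the 5% of cells with most UMIs the ratio was 0.26 for C1qa and 0.32 for C1qc, and equal weight per cell gave 0.60 for C1qb. The cause of these shifts was not tested.

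The C1q-positive share of Adgre1-positive cells, THP then vehicle, was higher in the THP library under every setting run: 74.6% and 66.8% with at least 2 Adgre1 UMIs, 49.7% and 39.0% with at least 3 C1q UMIs, 36.6% and 29.0% with at least 10, 36.7% and 28.9% with all 3 genes, 58.9% and 48.1% thinned to 5000 UMIs, 49.7% and 40.6% thinned to 2000, 65.1% and 56.1% without the top 5% of cells by UMIs, and 64.1% and 53.8% without the Vsig4 cluster. The log2 ratio of summed C1q in these cells was 0.25 with at least 2 Adgre1 UMIs, 0.27 without the top 5%, 0.25 with equal weight per cell, 0.58 with TMM factors, 0.29 without neutrophil-like clusters and 0.71 without the Vsig4 cluster. At a resolution of 1.0, summed C1q was higher in the THP library in 4 of 6 clusters compared, against 7 of 9. Using all barcodes moved neither ratios nor shares beyond their counting intervals. No paired analysis was possible because each group had 1 library. Depth limits the neutrophil-like clusters, with 415 and 398 C1q UMIs.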

Other observations

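Barcodes left out by the cell filter, 1070 in the THP deposit and 606 in the vehicle deposit, also held C1q UMIs. They had medians of 1141 and 1237.5 UMIs, and summed C1q stood at 605 CPM and 797 CPM. C1q UMIs were present in 26.9% of the THP barcodes and 19.5% of the vehicle barcodes, so the share and the level differed in opposite directions. C1qa made up 41.0% of their C1q UMIs in both libraries, a share between those of the Vsig4 cluster and of clusters 3 and 4.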
